A study of Danio rerio with 6 samples.

Results

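The gene described here is cdkn1a (ENSDARG00000076554), which encodes the cell cycle inhibitor p21. It is 1 of 32105 genes in the deposited table and was selected on its FPKM values (reads per unit of gene length and of sequencing depth), which were higher at night than by day in each of 3 tissues. That night and day difference is therefore a description with no test. The levels of cdkn1a between tissues, and the levels of the genes around it in the cell cycle and clock pathways, were not part of the choice.

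The fish were adult Tg(aanat2:EGFP) zebrafish, 0.5 to 1.5 years old, in a cycle of 12 h light and 12 h dark. Their transgene has aanat2 control regions that drive a green fluorescent protein, which marked the pineal gland for dissection, and the fish of every group carried the transgene. Tissue was taken 6 h after lights on (mid-day) and 18 h after lights on (mid-night). A pineal gland library pooled 18 glands, a whole eye library pooled 6 eyes, and a mixed tissue library held RNA from 8 organs (ovary, liver, kidney, gill, intestine, muscle, heart and brain), with 4 to 8 of each organ pooled. Each tissue and time had 1 poly-A library, so there were 6 libraries and no replicate at any time point.

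The product of cdkn1a binds cyclin and CDK complexes and the replication clamp PCNA, and so holds back the entry of cells into DNA synthesis. Its transcription answers to DNA damage and to many other signals. In mouse liver the clock repressor REV-ERB alpha lowers its transcription and ROR gamma raises it. In zebrafish larvae and cell lines p21 RNA is known to cycle between light and dark phases. Most cells of the adult pineal gland and retina have left the cell cycle, and cycling cells of the adult eye lie mainly at the margin of the retina and among glia. Of the mixed organs, ovary, intestine and kidney hold many dividing cells.

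The total reads behind the values ran from 7949224 in the pineal night library to 15950819 in the mixed night library. Markers of the pineal gland, lens and ovary matched the labelled tissues. The summed level of 10 pineal gland genes was 6092 to 7274 FPKM in the pineal libraries, 465 to 592 in eye and at most 6.25 in mixed tissue. Lens genes summed to at least 5018 FPKM in eye and to at most 12.8 elsewhere. Ovary genes summed to at least 2380 FPKM in mixed tissue and to at most 6.11 elsewhere. The brain list and the pigment cell list did not separate the tissues in this way. Brain genes summed to 1648 and 3055 FPKM by day and night in eye. In mixed tissue, which held brain, they summed to 962 and 817. Genes of pigment cells and retinal pigment epithelium summed to 1233 and 1411 FPKM in the pineal gland and to 472 and 736 in eye.

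By day cdkn1a was a gene of low level in all 3 tissues. It was at 3.34 FPKM in the pineal gland (45 reads, 95% exact Poisson interval 2.44 to 4.47 FPKM), 3.33 FPKM in the eye (61 reads, 2.55 to 4.28) and 1.62 FPKM in mixed tissue (31 reads, 1.1 to 2.3). At night it was at 129 FPKM in the pineal gland (1250 reads, 122 to 136), 47.0 FPKM in the eye (769 reads, 43.7 to 50.5) and 41.5 FPKM in mixed tissue (807 reads, 38.7 to 44.5). The lowest night value was 41.5 FPKM and the highest day value 3.34 FPKM. The gene was chosen for higher night values in each tissue, so this gap is no separate support. The 3 tissues are not repeats of a time point. The intervals cover counting error only, since no library was repeated. In bulk tissue, more cells with the transcript and more transcript per cell cannot be told apart.

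In order of level, pineal gland at night came first, then eye at night, mixed tissue at night, pineal gland by day, eye by day and mixed tissue by day. Counting intervals of neighbours in this order overlapped between pineal gland and eye by day, with a ratio of 1.00 (95% exact interval 0.667 to 1.50). They also overlapped between eye and mixed tissue at night, where the interval of the ratio itself did not hold 1 (1.13, 1.02 to 1.25). Among the 32105 genes of the table, cdkn1a ranked 12889 by FPKM in the pineal day library and 370 in the pineal night library. Its rank went from 13596 to 1416 in the eye and from 17810 to 1832 in mixed tissue. At night 98.8% of the genes of the table lay below it in the pineal gland, 95.6% in the eye and 94.3% in mixed tissue.

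**Figure D1:**
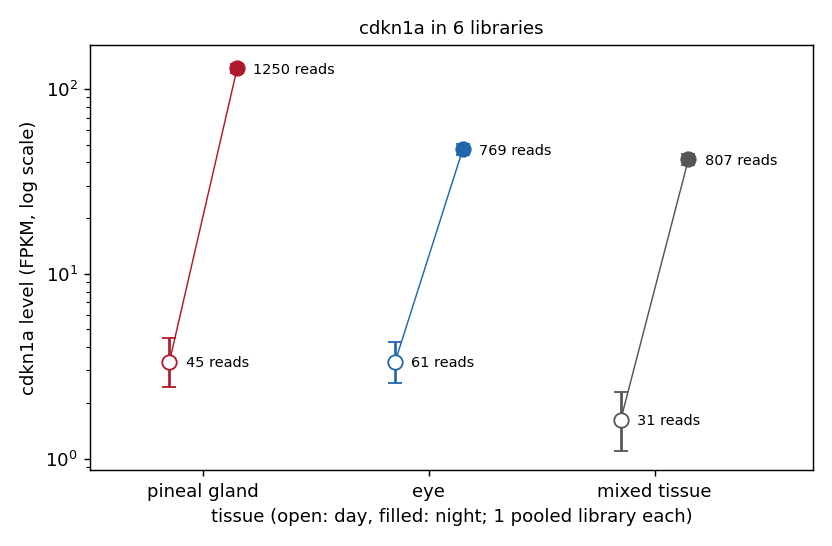
Level of cdkn1a in each of the 6 libraries (FPKM, log axis), with open circles for day, filled circles for night, and bars for the 95% exact Poisson interval of the reads. Day libraries lie between 1.62 and 3.34 FPKM and night libraries between 41.5 and 129 FPKM, and the 2 libraries of a tissue are joined by a line.

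The night to day ratio of cdkn1a was 38.6 in the pineal gland (95% exact interval 28.7 to 53.2, counting error only), 14.1 in the eye (10.9 to 18.6) and 25.6 in mixed tissue (17.9 to 38.0). These correspond to log2 ratios of 5.27, 3.82 and 4.68. On the log2(FPKM + 1) scale, used below for all genes, the differences were 4.90, 3.47 and 4.02, beside medians over all genes of -0.03, 0.10 and 0.03. Ranked by night increase among genes that reached 5 FPKM in 1 or both libraries of a tissue, cdkn1a was 5 of 11753 in the pineal gland, 33 of 12735 in the eye and 6 of 13055 in mixed tissue. In each tissue it reached 5 FPKM at night alone, and these ranks rest on the difference that chose it. The ratio in the pineal gland exceeded that in the eye by 2.74 times (1.81 to 4.16) and that in mixed tissue by 1.51 times (0.913 to 2.46). The ratio in mixed tissue exceeded that in the eye by 1.82 times (1.15 to 2.93). With 1 library per tissue and time, no spread between pools stands behind these comparisons.

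Marker genes of other cell types had different summed levels in the day and night pools of a tissue, and their part in the values of cdkn1a was not tested. The sum of 14 erythrocyte genes was 430 FPKM by day and 229 at night in the pineal gland, 319 and 210 in the eye, and 306 and 273 in mixed tissue. Of those with at least 5 FPKM, 6 of 11, 1 of 6 and 1 of 11 were 2-fold lower at night in the 3 tissues and 0 were higher, where 2.96%, 5.36% and 2.62% of all genes were lower. In the eye, 15 lens genes summed to 9205 FPKM by day and 5018 at night, and 9 of 15 were 2-fold lower. Brain genes, 29 in number, summed to 1648 and 3055 FPKM in the eye, and 11 of 20 were 2-fold higher there, where 5.89% of all genes were. Leukocyte genes, 14 in number, summed to 99.4 and 67.4 FPKM in the pineal gland, 44.4 and 34.4 in the eye and 406 and 353 in mixed tissue. Of those with at least 5 FPKM, 1 of 5, 0 of 4 and 1 of 10 were 2-fold lower and 0 were higher. Below 0 were 5 of 5, 4 of 4 and 5 of 10, with medians of -0.50, -0.62 and -0.07. The medians of all genes were -0.03, 0.10 and 0.03.

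Few genes shared the size and direction of this difference. The gene cdkn1a was chosen on it, so its place among them is a description only. Of 8528 genes that reached 5 FPKM by day or night in every tissue, 1626 (19.1%) were higher at night in all 3 tissues. Lower at night in all 3 were 1289 (15.1%), of which 16 were at least 2-fold lower on the log2(FPKM + 1) scale. On that scale only 8 genes were at least 2-fold higher in all 3, and 4 were at least 8-fold higher. Those 4 were cdkn1a, nr1d4b (ENSDARG00000059370), nr1d4a (ENSDARG00000031161) and NR1D1 (ENSDARG00000033160), and no gene was at least 8-fold lower in all 3. The other 3 encode nuclear receptors of the REV-ERB family. Taking each gene's smallest difference over the 3 tissues, nr1d4b was at 4.39, cdkn1a at 3.47, nr1d4a at 3.11 and NR1D1 at 3.07. The eye gave the smallest difference for cdkn1a, while mixed tissue gave it for the 3 REV-ERB genes.

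**Figure D2:**
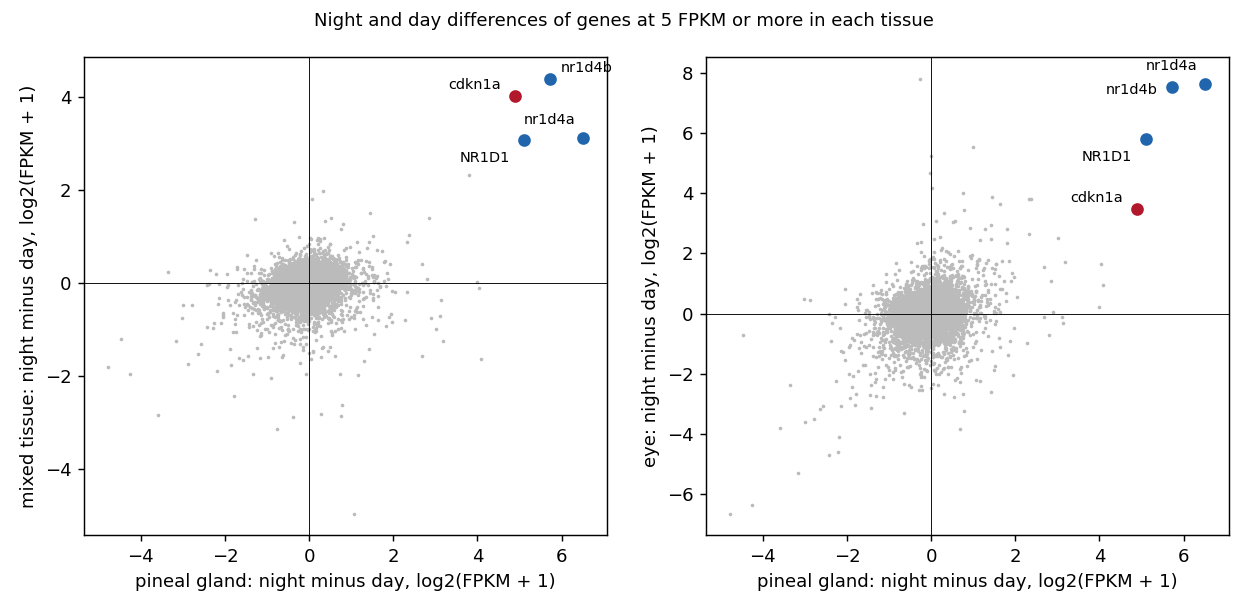
Night minus day difference on the log2(FPKM + 1) scale in the pineal gland (horizontal axes) against mixed tissue (left, vertical axis) and eye (right, vertical axis), 1 point per gene among the 8528 genes with at least 5 FPKM in each tissue. The gene cdkn1a (red) and 3 REV-ERB genes (blue) lie apart from the cloud at the upper right, with cdkn1a at 4.90 in the pineal gland, 4.02 in mixed tissue and 3.47 in the eye.

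Between tissues, cdkn1a was higher in pineal gland than mixed tissue. It was at 3.34 and 129 FPKM by day and night in the pineal gland and at 1.62 and 41.5 FPKM in mixed tissue, so the pineal library was the higher at both times. The pineal to mixed ratio was 2.06 by day (95% exact interval 1.28 to 3.37) and 3.11 at night (2.84 to 3.40). In a limma model over all 6 libraries with tissue and time as terms, the log2(FPKM + 1) difference was 1.17 (SE 0.35, 95% confidence interval 0.30 to 2.04, adjusted p 0.0306). Calls needed a 2-fold difference and an adjusted p (Benjamini-Hochberg) below 0.05, and 46.5% of the 21325 genes tested were called in this comparison. The median difference of all genes was -0.28, and quantile normalization moved it to 0.06 and cdkn1a to 1.49. That scaling also changed the split of all calls from 3491 higher and 6429 lower to 5119 higher and 4722 lower.

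The pineal to mixed call rested on some of the libraries. Without the pineal night library the difference was 0.59 (limma adjusted p 0.173), and without the pineal day library it was 1.75 (adjusted p 0.00831). Leaving out the mixed day library gave 1.25 (adjusted p 0.176) and leaving out the mixed night library gave 1.09 (adjusted p 0.235), so neither passed.

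Neither comparison of the eye passed in the same model. Against mixed tissue, the eye to mixed ratio of cdkn1a was 2.06 by day (1.32 to 3.28), and at night it was the 1.13 given above. The limma difference was 0.45 (SE 0.35, 95% confidence interval -0.42 to 1.32, adjusted p 0.295), where 49.2% of all genes were called, and it was -0.045 (adjusted p 0.916) without the eye day library. Between pineal gland and eye, the ratio was 1.00 by day and 2.74 at night (2.51 to 3.01). The limma difference was 0.72 (SE 0.35, 95% confidence interval -0.15 to 1.59, adjusted p 0.179), where 23.4% of all genes were called. It was 1.30 without the pineal day library, and that value passed (adjusted p 0.0400).

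**Figure D3:**
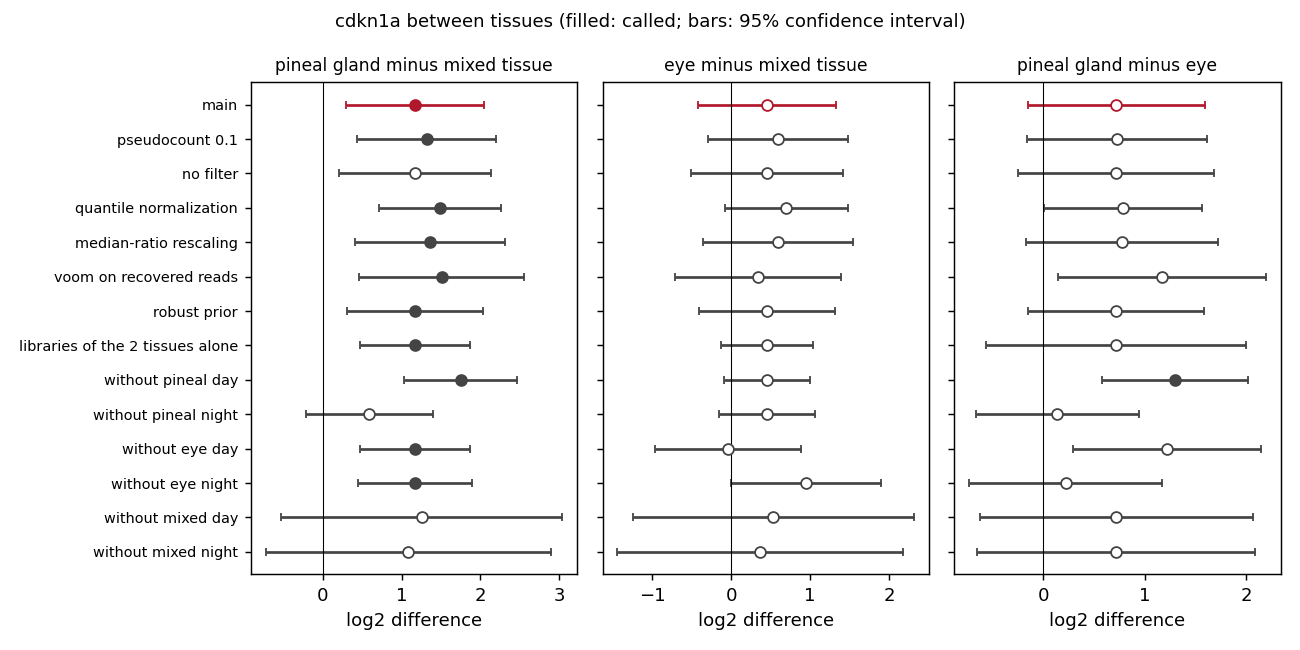
Difference of cdkn1a between tissues on the log2 scale in limma fits (points) with 95% confidence intervals (bars). The reported fit is red (top row), alternatives are grey and filled points are calls. The alternative with no time term is not drawn (pineal gland minus mixed tissue 1.17, interval -3.92 to 6.26). Pineal gland minus mixed tissue is 1.17 in the reported fit and runs from 0.59 to 1.75 as single libraries are left out, while eye minus mixed tissue crosses 0 when the eye day library is left out.

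Within its family, cdkn1a had a minor share by day and the leading share at night among the CDK inhibitor genes that matched. Of 9 matched CDK inhibitor genes, cdkn1a ranked 5 by FPKM by day in the pineal gland, 4 in the eye and 7 in mixed tissue. It ranked 1 in all 3 night libraries. Its share of their summed FPKM was 6.05% by day and 69.8% at night in the pineal gland, 5.18% and 37.3% in the eye, and 2.78% and 43.2% in mixed tissue. FPKM is scaled to gene length, so these shares are of length-scaled levels. The choice of cdkn1a rested on its higher night values, so its gain in rank and share is a description only.

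The other Cip/Kip genes that matched differed far less between day and night. Only cdkn1a was chosen on that difference, so this contrast is a description. Of 14 CDK inhibitor symbols listed 8 were found, so family members without a match are not covered. CDKN1B is the symbol of 2 genes here, both related to p27, the inhibitor that keeps resting cells out of the cycle. The first, ENSDARG00000054271, was the highest member by day. It was at 24.6 and 32.7 FPKM by day and night in the pineal gland and 43.0 and 43.0 in the eye. In mixed tissue it was at 24.4 and 20.9 FPKM. Its night level in the eye lay close to the 47.0 FPKM of cdkn1a (95% exact Poisson interval 43.7 to 50.5), which ranked above it there. The second, ENSDARG00000029018, was at 15.4 and 14.7 FPKM in the pineal gland, 6.72 and 14.8 in the eye and 4.08 and 4.97 in mixed tissue. Among members that reached 5 FPKM by day or night it was the only other one past 2-fold on the log2(FPKM + 1) scale, in the eye, with a night to day ratio of 2.21 (95% exact interval 1.88 to 2.59). It no longer passed there after rescaling by median ratios. The p57-related gene cdkn1ca (ENSDARG00000010878) was at most 0.904 FPKM in the pineal gland and eye and at 3.01 and 3.48 FPKM in mixed tissue.

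The matched inhibitors of the INK4 type, which act on CDK4 and CDK6, also showed no night level near that of cdkn1a. The gene cdkn2a/b (ENSDARG00000037262) was at 2.4 and 2.0 FPKM by day and night in the pineal gland, 7.75 and 13.4 in the eye and 4.72 and 6.30 in mixed tissue. CDKN2C (ENSDARG00000057610) stayed at or below 4.11 FPKM in every library. CDKN3 (ENSDARG00000039130), a phosphatase of CDKs that carries a similar name, was at 4.40 and 2.08 FPKM in the pineal gland, 0.916 and 2.39 in the eye and 15.7 and 14.9 in mixed tissue. Its night to day ratios of 0.472 in the pineal gland (0.260 to 0.819) and 2.61 in the eye (1.39 to 5.15) were at levels under 5 FPKM and were not counted. CDKN2D (ENSDARG00000094176) was at most 0.787 FPKM in any library. The gene cdkn1cb (ENSDARG00000104903), a Cip/Kip gene like cdkn1ca and not of the INK4 type, was at most 1.03 FPKM in any library.

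Counted with cdkn1a, which the choice of gene puts there, CDK inhibitors at least 2-fold higher at night were 1 of 3 with at least 5 FPKM in the pineal gland, 2 of 4 in the eye (1 of 4 after rescaling by median ratios) and 1 of 4 in mixed tissue, and none was 2-fold lower. Over all genes 2.38%, 5.89% and 0.781% were higher by this measure in the 3 tissues, and 2.96%, 5.36% and 2.62% were lower. Between tissues, 7 of the 9 genes were tested with limma. In pineal gland against mixed tissue 2 were called higher and 3 lower, beside 16.4% and 30.1% of all genes. In eye against mixed tissue 1 was higher and 2 were lower, beside 20.7% and 28.5%. In pineal gland against eye 0 were higher and 1 was lower, beside 9.25% and 14.1%. For so few genes these counts were near those shares. Besides cdkn1a, CDKN1B (ENSDARG00000029018) was above mixed tissue in the pineal gland by 1.54 (SE 0.30, adjusted p 0.00666). Lower there were CDKN3 by -2.0 (adjusted p 0.00769), cdkn1ca by -1.90 (adjusted p 0.000789) and cdkn2a/b by -1.02 (adjusted p 0.0212). In pineal gland against eye, cdkn2a/b was lower by -1.82 (limma adjusted p 0.00623) and no member was higher. In eye against mixed tissue, CDKN1B (ENSDARG00000029018) was higher by 1.01 (limma adjusted p 0.0286), and CDKN3 and cdkn1ca were lower, by -2.67 (adjusted p 0.00252) and -1.41 (adjusted p 0.00206).

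**Figure D4:**
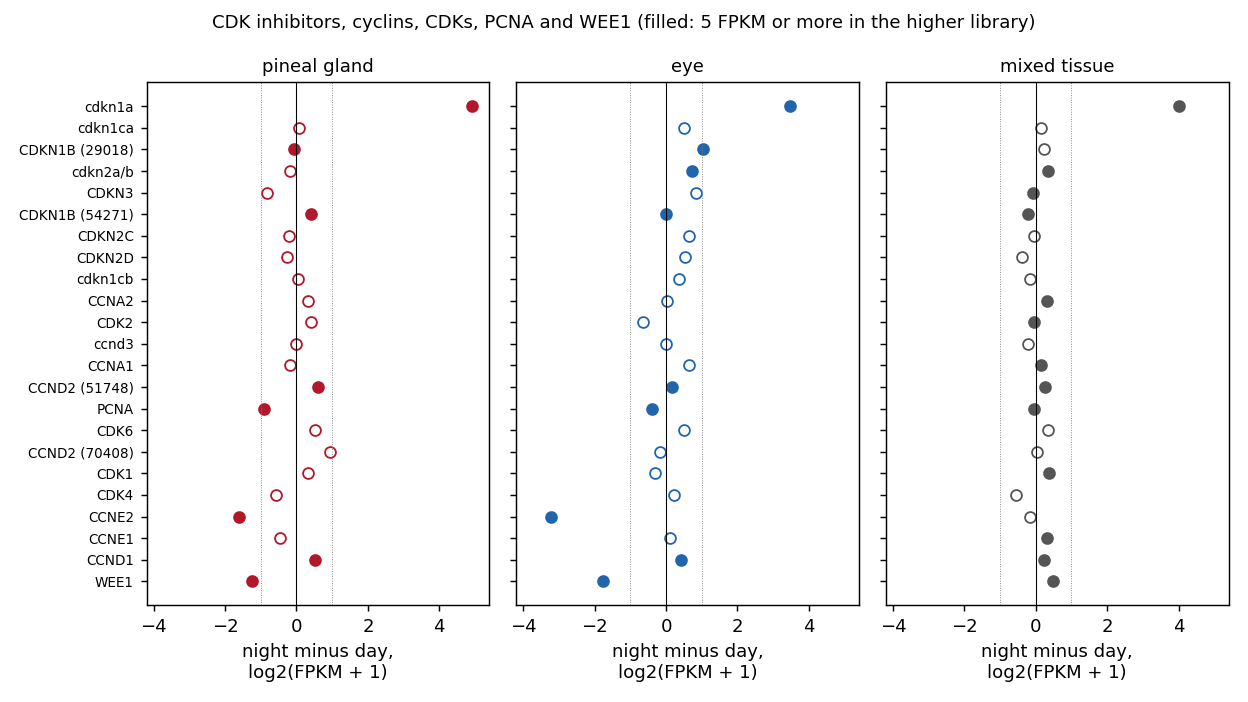
Night minus day difference on the log2(FPKM + 1) scale in each tissue for cdkn1a (top row), the other CDK inhibitor genes, cyclins, CDKs, PCNA and WEE1, with filled points for genes at 5 FPKM or more in the higher library and dotted lines at a 2-fold difference; the last 5 digits of the ID separate genes that share a symbol. The gene cdkn1a lies at 4.90, 3.47 and 4.02, and the points farthest to its left are CCNE2 and WEE1 in the pineal gland and eye.

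Among the cyclins and clamp that p21 binds, a cyclin E gene was over 2-fold lower at night in the pineal gland and eye. CCNE2 (ENSDARG00000098529), a cyclin E that pairs with CDK2 at the start of DNA synthesis, was at 9.08 and 2.33 FPKM by day and night in the pineal gland, 25.0 and 1.76 in the eye and 2.32 and 1.97 in mixed tissue. Its night to day ratio was 0.256 in the pineal gland (95% exact interval 0.178 to 0.360) and 0.0704 in the eye (0.0520 to 0.0934), against 0.848 in mixed tissue (0.604 to 1.19). PCNA (ENSDARG00000054155), the replication clamp, was at 36.4 and 19.0 FPKM in the pineal gland, 33.7 and 25.4 in the eye and 186 and 181 in mixed tissue. Its ratios were 0.523 (0.446 to 0.612), 0.755 (0.672 to 0.848) and 0.971 (0.930 to 1.01). In both genes the pineal gland and eye intervals lay below 1 and the mixed tissue interval held 1, but PCNA passed 2-fold in no tissue.

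Of the cyclin D genes, whose products drive CDK4 and CDK6 before that step, 0 passed 2-fold at 5 FPKM or more in any tissue. Over all genes 5.34% passed in either direction in the pineal gland, 11.3% in the eye and 3.4% in mixed tissue. For so few genes the count was near those shares. CCND1 (ENSDARG00000101637) was at 7.03 and 10.6 FPKM in the pineal gland, 3.68 and 5.28 in the eye and 7.75 and 9.26 in mixed tissue, and CCND2 (ENSDARG00000051748) at 16.9 and 26.4, 6.27 and 7.11, and 20.2 and 24.3. The second gene with the symbol CCND2 (ENSDARG00000070408) was at 0.996 and 2.82 FPKM in the pineal gland, 2.91 and 2.46 in the eye and 2.57 and 2.69 in mixed tissue. WEE1 (ENSDARG00000093864), a kinase that delays mitosis and a known clock target in mouse liver, was at 12.1 and 4.50 FPKM in the pineal gland, 6.83 and 1.30 in the eye and 19.8 and 28.2 in mixed tissue. Its ratio was 0.372 in the pineal gland (0.302 to 0.454) and 0.190 in the eye (0.142 to 0.251), and 1.43 in mixed tissue (1.32 to 1.54). The night level of WEE1 was thus lower in the pineal gland and eye and higher in mixed tissue.

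Few genes of the cell cycle lists passed 2-fold between day and night. For the G1/S and replication lists the counts were near the shares of all genes. Of the G1/S list (cyclins, CDKs, E2F and RB genes), 0 of 11 genes with at least 5 FPKM were 2-fold higher and 1 was 2-fold lower at night in the pineal gland, where 5.34% of all genes passed in either direction. The counts were 0 and 1 of 9 in the eye (11.3% of all genes) and 0 and 0 of 22 in mixed tissue (3.4%). The gene counted was CCNE2 both times. Of the DNA replication list, 0 of 9 passed in the pineal gland and in the eye, and in mixed tissue 1 of 47 was 2-fold lower, a gene with the symbol RRM2, a subunit of ribonucleotide reductase. At a lower minimum of 1 FPKM, 28 of 34 replication genes lay below 0 in the pineal gland, and again 0 passed 2-fold. Their median was -0.29 beside -0.02 for all genes. In the eye 23 of 36 lay below 0, with a median of -0.19 beside 0.08 for all genes. In mixed tissue 16 of 48 did, with a median of 0.12 beside 0.002. Of the mitosis list only 2 genes reached 5 FPKM in the pineal gland and in the eye, WEE1 and pkmyt1. WEE1 was 2-fold lower in both tissues (list medians -0.82 and -0.84). In mixed tissue 34 reached that level, of which none passed and 31 were above 0. Their median there was 0.21, beside 0.03 for all genes. The shares of all genes above and below 0 were not counted for these comparisons.

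**Figure D5:**
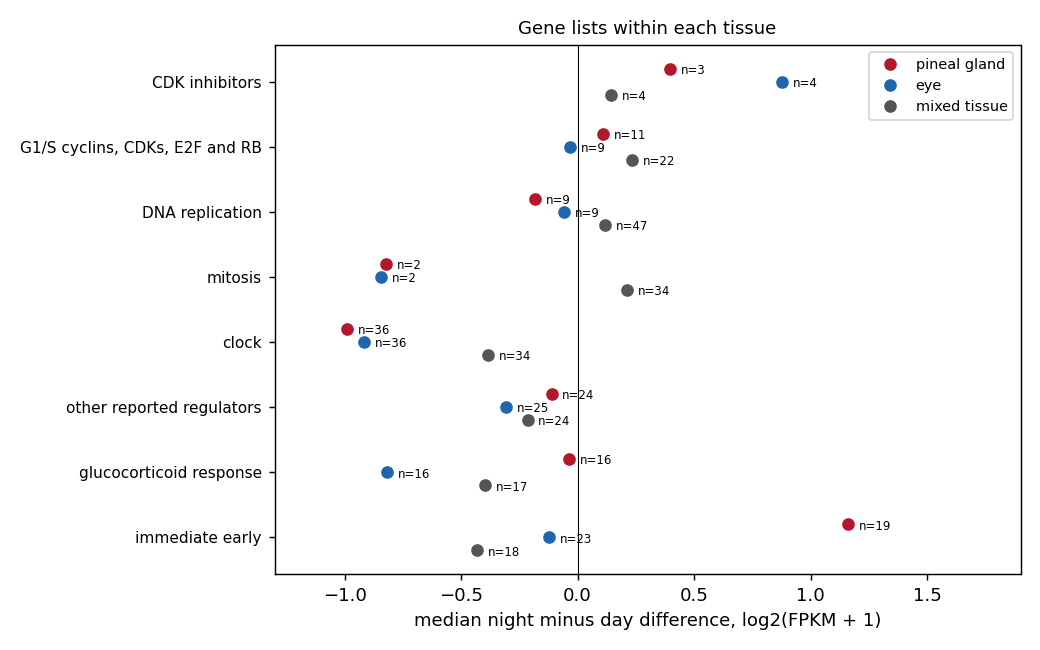
Median night minus day difference on the log2(FPKM + 1) scale of 8 gene lists in each tissue, over members that reached 5 FPKM by day or night (n beside each point). The clock list has the lowest medians among the lists with more than 2 members in the pineal gland (-0.99) and eye (-0.91), immediate early genes have the highest in the pineal gland (1.16), and the G1/S and replication medians lie between -0.18 and 0.23.

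Against mixed tissue most genes of these lists were lower in the pineal gland and in the eye, whereas cdkn1a was higher in the pineal gland. In pineal gland against mixed tissue, limma called 46 of 48 replication genes and 33 of 35 mitosis genes lower and none higher, with median differences of -3.14 and -4.13, where 30.1% of all genes were called lower. In the G1/S list 18 of 30 were lower and 1 was higher (median -1.26). Eye against mixed tissue gave 47 of 48, 33 of 35 and 19 of 30 lower, where 28.5% of all genes were. In pineal gland against eye, 1 gene of each of the 3 lists was called higher and none lower, beside 9.25% and 14.1% of all genes, and the medians were 0.06 for G1/S, -0.18 for replication and -0.15 for mitosis. Under quantile normalization 45 replication genes and 32 mitosis genes were lower in the pineal gland. Ovary was part of mixed tissue alone, where its marker genes summed to 2380 by day and 2615 FPKM at night, and its part in these counts was not tested.

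The clock genes reported to act on the p21 gene in mouse had large night and day differences. NR1D1 (ENSDARG00000033160), which encodes REV-ERB alpha, was at 2.48 and 120 FPKM by day and night in the pineal gland, 4.39 and 298 in the eye and 5.13 and 50.5 in mixed tissue. The related nr1d4a was at 0.729 and 156 FPKM, 1.71 and 537, and 1.51 and 20.7, and nr1d4b at 0.656 and 86.8, 0.911 and 357, and 1.20 and 45.3. These 3 genes were therefore high in the same 3 libraries as cdkn1a, but their highest level was in the eye at night, whereas that of cdkn1a was in the pineal gland at night. A further member, nr1d2a (ENSDARG00000003820), was at 40.8 and 82.2 FPKM in the pineal gland, 73.7 and 45.1 in the eye and 58.4 and 50.4 in mixed tissue, and did not share that pattern.

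Genes of the ROR family, which bind the same DNA elements as REV-ERB and activate them, were lower at night. The gene rorca (ENSDARG00000057231) was at 272 and 29.7 FPKM by day and night in the pineal gland, 251 and 5.30 in the eye and 22.5 and 8.96 in mixed tissue. Its paralog rorcb (ENSDARG00000017780) was at 81.1 and 3.30 FPKM, 155 and 0.877, and 8.32 and 1.38. The gene rorab (ENSDARG00000001910) was at 50.3 and 7.22 FPKM, 143 and 14.8, and 13.1 and 3.85. Within each tissue all 3 were higher by day, where cdkn1a was lower.

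Of the core activators, BMAL1 (ENSDARG00000035732) was at 23.2 and 5.93 FPKM in the pineal gland, 35.3 and 3.43 in the eye and 5.99 and 3.44 in mixed tissue, and npas2 (ENSDARG00000016536), a partner of BMAL1, at 39.5 and 9.24, 45.3 and 2.17, and 3.49 and 1.80. Across the clock list 7 of 36 genes were 2-fold higher and 18 lower at night in the pineal gland, 11 and 17 of 36 in the eye, and 6 and 11 of 34 in mixed tissue. Over all genes the shares higher and lower were 2.38% and 2.96% in the pineal gland, 5.89% and 5.36% in the eye and 0.781% and 2.62% in mixed tissue.

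Other genes with reported effects on p21 transcription, include SMAD, KLF, FOXO and C/EBP factors. Of 24, 25 and 24 members with at least 5 FPKM in pineal gland, eye and mixed tissue, 0 were 2-fold higher at night, a count near the 2.38%, 5.89% and 0.781% of all genes. In the other direction 2, 8 and 0 were 2-fold lower, beside 2.96%, 5.36% and 2.62% of all genes. In the eye KLF4 (ENSDARG00000079922), a zinc finger factor, had 12.2 FPKM by day and 2.06 at night, and foxo3b (ENSDARG00000042904), a forkhead factor, at 85.6 and 24.7. Genes of the glucocorticoid response, another known input to p21, were 2-fold higher in 2 of 16, 2 of 16 and 1 of 17 cases and 2-fold lower in 0, 7 and 2. Among them FKBP5 (ENSDARG00000028396), a chaperone gene used as a read-out of the hormone, was at 249 and 160 FPKM by day and night in the pineal gland, 373 and 37.1 in the eye and 170 and 57.2 in mixed tissue. In the pineal gland it was not 2-fold lower, and 8 genes of the list lay above 0 and 8 below. Above and below 0 were 4 and 12 in the eye and 3 and 14 in mixed tissue.

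Immediate early genes, which respond within minutes to stimulation, also differed between the pools. In the pineal gland 11 of 19 were 2-fold higher and 1 was lower at night, beside 2.38% and 2.96% of all genes. In the eye 6 of 23 were higher and 8 lower (5.89% and 5.36% of all genes), and in mixed tissue 0 of 18 were higher and 3 lower (0.781% and 2.62%). Their summed level was 304 FPKM by day and 1598 at night in the pineal gland, 1408 and 1053 in the eye, and 731 and 621 in mixed tissue. The part of these differences in the values of cdkn1a was not tested.

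The 10 genes whose 6 values were most like those of cdkn1a were sought among 13267 genes with at least 10 FPKM in some library, by the root mean square difference of log2(FPKM + 1) values after each gene was centred on its mean. The median gene lay at 2.29 by this measure. The night and day difference that chose cdkn1a is part of these 6 values, so the likeness is a description only. The nearest were dbpb (ENSDARG00000057652), which encodes a PAR bZIP transcription factor, at 1.00, and NR1D1 at 1.01. After them came ciartb (ENSDARG00000088171) and PER1 (ENSDARG00000056885), both at 1.32, nr1d4b at 1.42, DTX4 (ENSDARG00000076302) at 1.46, cipca (ENSDARG00000075397) at 1.49, ASPA (ENSDARG00000005154) at 1.51, and dbpa (ENSDARG00000063014) and FBXO25 (ENSDARG00000075172), both at 1.56. Another gene with the symbol PER1 did not share the pattern. Its night minus day differences were -0.23 in the pineal gland, 1.53 in the eye and -0.40 in mixed tissue. The values of dbpb by day and night were 7.40 and 115 FPKM in the pineal gland, 6.37 and 296 in the eye and 5.35 and 30.6 in mixed tissue, so it was highest in the eye at night, unlike cdkn1a. With Pearson correlation in place of this distance, 2 of the 10 remained among the nearest 10.

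The genes beside cdkn1a on the chromosome were also looked up. In the RefSeq gene order of assembly GRCz12tu, 6 genes on either side were taken and 8 of the 12 matched the table. Those without a match included srsf3b, pth4 and apobec2a, which lie next to cdkn1a on the side away from tmcc2. Of the 8, 0 were 2-fold higher at night in any tissue, a count near the 2.38%, 5.89% and 0.781% of all genes. Those shares are over genes with at least 5 FPKM, a level that some of the 8 did not reach. The nearest matched gene, tmcc2, was at 2.80 and 1.92 FPKM by day and night in the pineal gland, 9.57 and 13.4 in the eye and 2.78 and 1.94 in mixed tissue. The ribosome assembly gene bysl went the other way in the pineal gland, at 19.8 and 5.27 FPKM. The cyclin D gene ccnd3, which also lies near cdkn1a, was listed at 0 in the pineal and eye libraries and at 2.53 and 2.04 FPKM in mixed tissue.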

How the data were processed

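Poly-A RNA of 6 libraries was measured by sequencing. The submitters' processing notes name FastQC, the aligner STAR (2.3.0e), featureCounts of the Subread package, DESeq2 and the build danRer10. For strand, reads shared by gene copies and annotation release, the settings are not given in the sources used here. FPKM values for 32105 genes were deposited by the authors; the 3 columns of means were not used. Symbols came from a table pairing IDs with names (26269 IDs matched) and are often in human capitals.

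Whole reads were recovered from the FPKM steps: for all 27233 genes above 0, values were whole reads within 0.0001 read at some whole gene length (1219 bases for cdkn1a). A factor shared by length and reads would go unseen, which would make intervals too wide; reads counted separately from 1 fragment would make them too narrow. Intervals (95% exact Poisson, Clopper-Pearson or conditional odds ratio) were computed with scipy 1.17.1 and cover counting error only.

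Tissue differences were fitted on log2(FPKM + 1) by limma (3.58.1, under R 4.3.3), two-sided, with tissue and time as terms and a mean trend in the variances (2 residual and 3.46 prior degrees of freedom), over 21325 genes with at least 1 FPKM in 2 libraries. The p-values set each tissue difference against how far these 6 pools depart from a sum of a tissue and a time effect. They do not measure a spread between repeated pools. Scripts were tested on simulated data. Night and day within a tissue had no test: genes at 5 FPKM or more in the higher library with a 2-fold log2(FPKM + 1) difference were counted.

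The gene and the 17 gene lists (9 of markers) were chosen with earlier results of these data known. Symbols found were 8 of 14 for CDK inhibitors, 29 of 34 for G1/S, 46 of 47 for replication, 34 of 42 for mitosis, 36 of 63 for clock, 25 of 43 for other regulators, 16 of 22 for glucocorticoid response and 24 of 35 for immediate early genes; the others are not analysed here. Any CDK inhibitor and any nr1d, ror, bmal1 or npas2 gene could be named, and of other lists the 4 largest rises and falls in a comparison at 5 FPKM or more. The neighbouring genes were named outside this rule for their place, after their values were seen. A further gene list is not reported here. The neighbour order is that of RefSeq on assembly GRCz12tu, not the build of the files. Photoreceptor, liver, muscle and heart, and pigment cell marker sums were computed and are given below. No sequence was used here.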

Additional observations from a re-analysis of the deposited data

How the results depend on the processing

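No paired analysis was possible because each tissue and time has 1 library and the labels give no shared replicate numbers; the time term of the fit matches libraries by time across tissues. The pineal to mixed difference of cdkn1a kept its direction in all 14 alternatives and its call in 9; the call was lost without the filter on low values (1.17, limma adjusted p 0.0522), with no time term (1.17, adjusted p 0.650) and without the pineal night, mixed day or mixed night library. As libraries were left out in turn, pineal against mixed ran from 0.59 to 1.75, eye against mixed from -0.045 (without the eye day library, where it reversed) to 0.95, and pineal against eye from 0.14 to 1.30, its only call. Where 1 library of a tissue was left out, the lone library was assumed to vary like the others. Without the time term the SE was 2.08; the cause of the other losses and of the reversal was not tested. With voom on the recovered reads the 3 differences were 1.51 (adjusted p 0.0224), 0.34 (adjusted p 0.512) and 1.17 (adjusted p 0.0790).

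The log2 night to day ratios of cdkn1a ran from 4.90 to 5.34 in the pineal gland and from 3.47 to 3.82 in the eye over the alternatives. In mixed tissue the log2(FPKM + 1) scale gave 4.02 in place of 4.68, since the pseudocount weighs most at the low day level, and quantile normalization gave 5.20. Over tissues and the lists other than markers, 2-fold differences between day and night numbered 126. There were 130 at a minimum of 1 FPKM, 128 after median-ratio rescaling and 182 at a 1.5-fold limit. A gene could count in more than 1 tissue, and these totals are below the plain sums of the list counts. Tissue calls over the same lists, again without markers, numbered 291, against 272 to 320. Of the 10 genes most like cdkn1a, 9 were shared with a pseudocount of 0.1, 6 after centring within each tissue and 2 with Pearson correlation. With 31 to 61 reads by day, cdkn1a is least precise in the day libraries.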

Other observations

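Marker sums not given above were as follows, in FPKM by day and night. Of photoreceptors, 25 genes summed to 9684 and 11086 in the pineal gland, 17069 and 15737 in the eye, and 11.0 and 7.94 in mixed tissue. Of pigment cells and retinal pigment epithelium, 13 genes summed to 1233 and 1411, 472 and 736, and 9.01 and 9.80. Of liver, muscle and heart, 22 genes summed to 7.29 and 13.1, 221 and 247, and 8737 and 7188. None of these lists was tested against the level of cdkn1a.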
